A study of Mus musculus with 12 samples.

Results

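The ribosome biogenesis genes described here are 39 genes whose products transcribe ribosomal DNA with RNA polymerase I, or modify, cut and assemble the ribosomal RNA. They were followed in ATAC-seq, an assay in which the Tn5 transposase cuts and tags open chromatin, of mouse blood stem and progenitor cells. A region of open chromatin belonged to a gene where it overlapped the protein-coding RefSeq body of that gene. A region that overlapped no body belonged to the nearest body within 100 kb. All 39 genes had at least 1 region, and together they held 175 of the 188262 regions in the deposited data.

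The 12 libraries formed 4 groups of 3, namely KO long-term haematopoietic stem cells (LT-HSC), WT LT-HSC, KO multipotent progenitors (MPP), the early descendants of LT-HSC, and WT MPP. KO mice were Phf6-/Y Rosa26+/Cre-ERT2 males, in which a tamoxifen-activated Cre at the broadly active Rosa26 locus accompanies the deleted Phf6 allele, and WT mice were Phf6f/Y Rosa26+/+ males with a floxed allele and no Cre. The labels give tamoxifen and an interval of 8 weeks for both genotypes, and individual mice as the source of the LT-HSC. For MPP the preparation, and for all mice the age, was not given in the sources used. Since the KO mice alone carried Cre-ERT2, its effect and that of Phf6 loss cannot be told apart. Each library pooled many sorted cells, so a region open in fewer cells and a region less open in every cell cannot be told apart either.

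Ribosome production starts in the nucleolus, where RNA polymerase I, recruited by UBF and SL1 with the help of RRN3, copies the ribosomal DNA. Small nucleolar ribonucleoproteins (snoRNPs) then guide methylation and pseudouridylation of the transcript, the small subunit processome cuts and folds its 5' part, and a separate set of factors builds the large subunit. PHF6 is a nuclear zinc finger protein that has been reported in the nucleolus and linked to ribosomal DNA transcription, and blood stem cells are known to keep protein synthesis low.

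The promoters of 5 of these genes are shown because an open region overlapping each of them passed the test as higher in KO cells, with the lowest p-values among the genes for which a promoter window was given. Each is the RefSeq window of GRCm38.p6, 250 bases before to 50 bases after the annotated start, written 5' to 3' on the strand of the gene. Capitals mark matches, on either strand, to any of 9 motifs: the E-box CACGTG, the ETS motif CCGGAAG, the GC box GGGCGG, the CCAAT box CCAAT, the NRF1 core GCATGCG, the YY1 core AAGATGG, the CRE core TGACGTC, the AP-1 motif TGANTCA and the TATA box TATAAA. Polr1a lies at chr6:71908803-71909102 (plus strand), Imp3 at chr9:56937250-56937549 (plus), Pes1 at chr11:3963725-3964024 (plus), Imp4 at chr1:34439579-34439878 (plus) and Wdr12 at chr1:60098085-60098384 (minus).
Polr1a: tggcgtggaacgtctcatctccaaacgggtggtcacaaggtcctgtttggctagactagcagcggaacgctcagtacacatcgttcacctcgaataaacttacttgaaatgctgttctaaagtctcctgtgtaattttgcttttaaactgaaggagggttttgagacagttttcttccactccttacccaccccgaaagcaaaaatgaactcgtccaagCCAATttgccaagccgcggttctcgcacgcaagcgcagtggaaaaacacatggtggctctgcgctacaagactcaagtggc
Imp3: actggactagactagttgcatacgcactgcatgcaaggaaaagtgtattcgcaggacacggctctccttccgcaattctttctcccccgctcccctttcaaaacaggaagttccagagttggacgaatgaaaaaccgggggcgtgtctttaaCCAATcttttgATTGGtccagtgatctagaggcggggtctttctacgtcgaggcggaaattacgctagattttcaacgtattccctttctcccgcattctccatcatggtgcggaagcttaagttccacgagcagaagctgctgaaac
Pes1: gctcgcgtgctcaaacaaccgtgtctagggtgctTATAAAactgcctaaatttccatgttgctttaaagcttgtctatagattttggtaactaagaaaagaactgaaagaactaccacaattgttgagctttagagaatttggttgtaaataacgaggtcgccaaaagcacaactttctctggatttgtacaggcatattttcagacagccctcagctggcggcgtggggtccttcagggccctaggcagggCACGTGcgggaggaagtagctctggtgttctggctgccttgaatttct
Imp4: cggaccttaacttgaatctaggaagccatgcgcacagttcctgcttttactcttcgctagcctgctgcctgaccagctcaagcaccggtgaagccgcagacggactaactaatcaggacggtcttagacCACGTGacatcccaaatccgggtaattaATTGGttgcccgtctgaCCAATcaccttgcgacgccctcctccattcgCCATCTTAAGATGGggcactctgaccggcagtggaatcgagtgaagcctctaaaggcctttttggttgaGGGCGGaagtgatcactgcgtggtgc
Wdr12: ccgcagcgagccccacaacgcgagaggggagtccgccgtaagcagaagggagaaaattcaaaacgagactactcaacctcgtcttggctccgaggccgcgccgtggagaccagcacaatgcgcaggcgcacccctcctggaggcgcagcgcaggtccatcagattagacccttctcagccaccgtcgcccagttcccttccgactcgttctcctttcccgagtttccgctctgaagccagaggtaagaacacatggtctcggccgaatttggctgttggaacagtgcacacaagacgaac

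The windows carry different motifs, and that of Wdr12 carries none. Polr1a has 1 CCAAT box and Imp3 a pair of CCAAT boxes facing each other. Pes1 has a TATA box and an E-box. In Imp4 an E-box, 2 CCAAT boxes, an inverted pair of adjoining YY1 cores and a GC box were found. Wdr12 has 3 windows that overlap its called region, and the one shown, which lies wholly within that region, holds none of the 9 motifs. Of the other Wdr12 windows, that at chr1:60098451-60098750 holds 2 GC boxes and shares few bases with the region, and the third holds no match. Of the 33 genes with a window, 11 (33.3%) held the ETS motif, against 12.9% of 17492 protein-coding genes with a window, and 22 (66.7%) held a GC box, against 49.2%. E-boxes were in 5 (15.2%), against 8.91%, CRE cores in 3 (9.09%), against 4.35%, and NRF1 cores in 2 (6.06%), against 4.96%. CCAAT boxes were in 12 (36.4%), against 42.3%, TATA boxes in 2 (6.06%), against 14.8%, and the YY1 core in 1 (3.03%), against 7.18%. The AP-1 motif was in 0 of 33 windows, against 8.12%. In 86 other ribosome biogenesis genes, of a wider list described at the end, the ETS motif was in 43 of the 86, the GC box in 66.3%, E-boxes in 22.1%, CRE and NRF1 cores in 12.8% each, CCAAT boxes in 34.9%, TATA boxes in 6.98%, the YY1 core in 5.81% and the AP-1 motif in 1.16%. A gene with several windows counted once if any of them matched, and a match is a run of letters, not a measured binding site.

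Total counts in the regions ran between 22665988 and 48547234 per library. Regions no more than 1 kb away from the start or the end of a protein-coding gene, called gene-end regions here, took 39.2% to 39.6% of the counts in KO LT-HSC, against 37.8% to 38.9% in WT LT-HSC, and 41.0% to 41.4% in KO MPP, against 39.2% to 41.0% in WT MPP. The cell labels were checked with the strongest region of each marker gene, summed over the list. The 7 LT-HSC markers summed to 122 to 131 CPM in KO MPP and 184 to 193 CPM in KO LT-HSC, and to 115 to 121 CPM in WT MPP and 170 to 186 CPM in WT LT-HSC, and 5 of the 7 were lower in WT MPP than in WT LT-HSC by the test. Among 6 MPP markers Mpo, Cd48 and Flt3 were higher in WT MPP, while Cebpe was lower. The 6 MPP markers summed to 172 to 177 CPM in KO MPP and 152 to 156 CPM in KO LT-HSC, and to 173 to 181 CPM in WT MPP and 147 to 154 CPM in WT LT-HSC. T cell markers summed to 4.46 to 7.1 CPM over all libraries, with 3 of 4 genes holding a region, and B cell markers (4 genes) to 31.1 to 38.0 CPM. The sums of NK cell and macrophage markers (3 each) were higher in all MPP than in all LT-HSC libraries of the same genotype. Single NK cell markers differed, with Klrb1c at means of 34.6 CPM in WT MPP and 36.4 CPM in WT LT-HSC, and Klrd1 at 8.65 and 1.72 CPM. The NK cell sums were 47.3 to 50.9 CPM in KO MPP and 39.3 to 41.9 CPM in KO LT-HSC, and 42.9 to 48.5 CPM in WT MPP and 39.9 to 40.1 CPM in WT LT-HSC. The B cell sums did not overlap in KO, with 35.3 to 36.8 CPM in MPP and 31.1 to 34.0 CPM in LT-HSC, nor the T cell sums in WT, with 5.63 to 6.26 CPM in MPP and 5.01 to 5.22 CPM in LT-HSC. The macrophage sums were 48.8 to 51.1 CPM in KO MPP and 31.0 to 32.8 CPM in KO LT-HSC, and 46.5 to 51.6 CPM in WT MPP and 32.2 to 35.5 CPM in WT LT-HSC. The 3 erythroid markers summed to 68.3 to 71.5 CPM in KO LT-HSC and 59.5 to 64.8 CPM in WT LT-HSC, and the 3 endothelial markers to 71.4 to 79.0 CPM in KO LT-HSC and 63.4 to 66.1 CPM in WT LT-HSC. In MPP the erythroid sums were 66.6 to 69.7 CPM in KO and 57.4 to 64.1 CPM in WT, and the endothelial sums 57.5 to 59.5 CPM in KO and 55.4 to 63.3 CPM in WT, and the part of such cells in the results was not tested. The strongest region at Phf6 held 28.8, 27.0 and 26.5 CPM in KO LT-HSC, against 25.4, 27.3 and 26.9 CPM in WT LT-HSC, and 29.7, 27.7 and 28.4 CPM in KO MPP, against 32.4, 31.2 and 30.6 CPM in WT MPP, values that do not check the deletion.

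Levels are given in CPM, that is, the count of a region relative to the scaled total of its library, and they are per region, not per base. The 39 genes had between 1 and 22 regions each, with a median of 3. Of the 175 regions 56 were gene-end regions, 55 lay in a gene body and 64 outside. The strongest region of each gene, chosen by its mean over all 12 libraries and called the lead region here, held 74.0% of the counts of the gene set after scaling. Lead regions averaged 13.3 to 107 CPM, with a median of 39.8 CPM, while the median of the other regions of these genes was 2.51 CPM and 1.8 CPM that of all regions measured. In 37 of 39 genes the lead region lay at a gene end, and 31 lead regions overlapped an annotated promoter window. The lead regions of Ubtf and Nat10 lay in the body, that of Nat10 overlapping a promoter window. Those of Ubtf and Wdr75 missed the windows, and 6 genes had no window. In 14 genes the lead region was also within 1 kb of the start or the end of another protein-coding gene. Its openness cannot then be given to either gene alone.

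**Figure D1:**
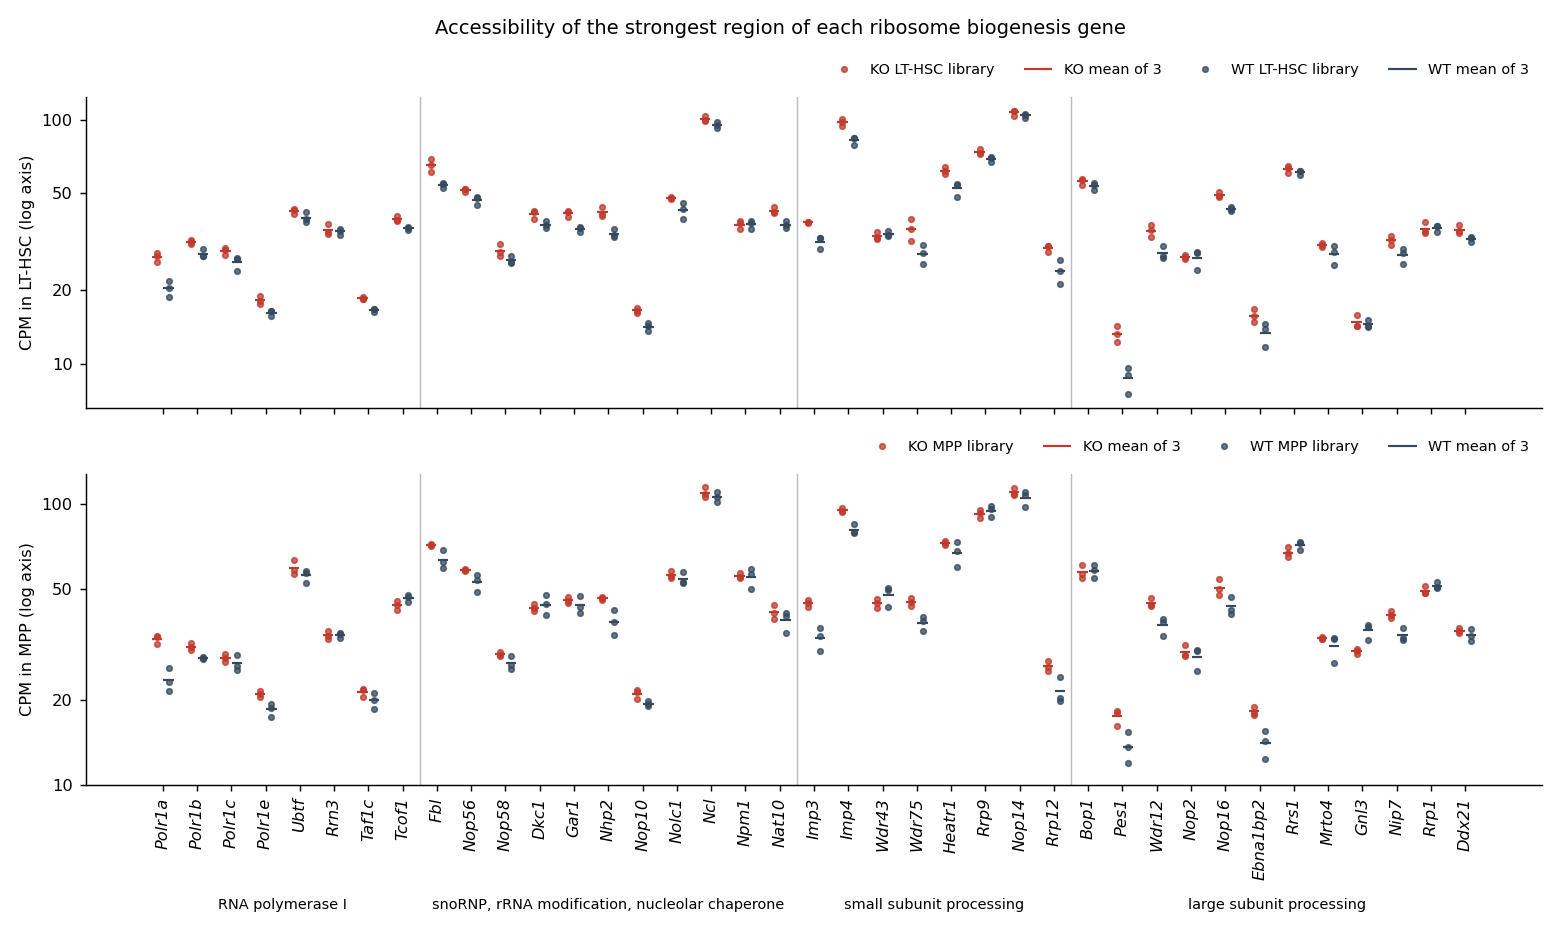
Accessibility of the lead region of each of the 39 genes, in CPM on a log axis, in LT-HSC (top) and MPP (bottom). Points are single libraries and short lines the mean of 3, with KO left of WT. Lead regions averaged between 13.3 CPM (Pes1) and 107 CPM (Nop14) over all libraries, and the KO and WT points of a gene lie close together on this axis.

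The comparison of KO with WT asked which regions differ in openness when Phf6 is lost. A member region counted as gene-end where the start or the end was that of its own gene. In LT-HSC, 18 of 174 tested regions of the gene set were higher in KO and 4 were lower (10.3% and 2.30%), where the shares over all 186373 regions tested were 3.27% and 1.47%, by edgeR's quasi-likelihood test with a Benjamini-Hochberg adjusted p under 0.05. Most of the gains sat at gene ends. Of the 56 gene-end regions 14 were higher and 0 were lower in KO LT-HSC, where 8.2% of all gene-end regions were higher and 0.968% lower. Among the lead regions 11 of 39 (28.2%) were higher and 0 lower. For gene-end regions of at least 10 CPM in the whole table the shares were 14.5% and 0.567%. All lead regions averaged more than 10 CPM, but this class was not otherwise matched to them in strength. The log2 fold change of KO over WT was positive at 36 of 39 lead regions with a median of 0.16, and at 27 of 39 with a loess scaling on mean level. It was positive at 76.0% of all gene-end regions of at least 10 CPM, with a median of 0.09. By DESeq2 17 regions were higher and 4 lower. Scaling by total counts left 10 higher and 4 lower and the loess scaling 8 and 4. With the gene-end share of each library as covariate 2 regions were called, the Pes1 lead region and 1 in the body of Ncl. That share was higher in every KO than in every WT LT-HSC library, so the covariate and genotype cannot be fully told apart. With it the calls over all tested regions went from 6093 higher and 2741 lower to 1382 and 461. Log2 fold changes moved both ways, as at Ddx21 (0.51 to 0.69) and Fbl (0.27 to 0.17). All the other LT-HSC calls described below ended with the covariate. The loess scaling ended those of Fbl, Nhp2, Imp4, Gar1, Imp3, Ddx21, both Heatr1 regions, the Rrp12 lead region and the weaker Ubtf start region, and total-count scaling ended those of Gar1, Imp3, Ddx21, both Heatr1 regions, the Rrp12 lead region, that Ubtf region and Wdr43. Without WT LT-HSC 1, WT LT-HSC 2, KO LT-HSC 1, KO LT-HSC 2 or KO LT-HSC 3 the count was 12, 14, 13, 10 or 12.

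In MPP 18 regions were higher in KO and 9 lower (10.3% and 5.17%), where the shares over all regions tested were 5.12% and 3.59%. At gene ends 14 of 56 were higher and 1 lower, where 11.4% of all gene-end regions were higher and 2.4% lower. Of the lead regions 11 (28.2%) were higher and 1 lower, against 17.4% and 2.1% of all gene-end regions of at least 10 CPM. Positive log2 fold changes were found at 30 of 39 lead regions (25 with the loess scaling), with a median of 0.09, and at 69.8% of the strong gene-end regions of the table, with a median of 0.08. Away from gene ends KO MPP was higher at 4 of 118 tested regions and lower at 8 (3.39% and 6.78%), where the shares over all tested regions away from gene ends were 4.17% and 3.77%. KO LT-HSC was higher at 4 of these regions and lower at 4 (3.39% each), where the shares were 2.52% and 1.55%. The shares over all regions leave out those within 1 kb of an end of any protein-coding gene. A member region was judged by the ends of its own gene only, and the lower Bop1 region lay at an end of Scx. By DESeq2 16 regions were higher and 7 lower in MPP, the calls lost being those of Polr1e, 1 body region of Rrp12 and both Ncl regions. With gene-end share as covariate 9 calls were left, those of Imp3, Gnl3, Ddx21, Nop58, Rrp9, Tcof1, the start and body regions of Polr1a and the weaker Ubtf start region, and all the other MPP calls described below ended. The share ran higher in KO than in WT MPP as well, with ranges that met at 41.0%, so the covariate overlaps with genotype there too. Without WT MPP 2, WT MPP 3, KO MPP 2 or KO MPP 3 the count of calls was 15, 17, 15 or 9.

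The calls of the 2 populations overlapped. Of the 18 higher regions in each, 11 (61.1%) were higher in both. Over all tested regions the higher calls in both populations were 29.0% of those in MPP and 45.4% of those in LT-HSC, and over gene-end regions of at least 10 CPM 50.6% and 61.0%, the last close to the share of the gene set. In the gene set 1 region was lower in both, 11.1% of the 9 in MPP and 25.0% of the 4 in LT-HSC, against 12.5% and 30.5% of all regions called lower. No region was called in opposite directions. Of the 39 genes 26 had a called region in either population and 13 had none. Such a count depends on the number of regions per gene, which reached 22, and the share over all genes was not computed. The 2 populations share no library in these comparisons, but both were read from the same fit. Whether they came from the same mice was not given.

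**Figure D2:**
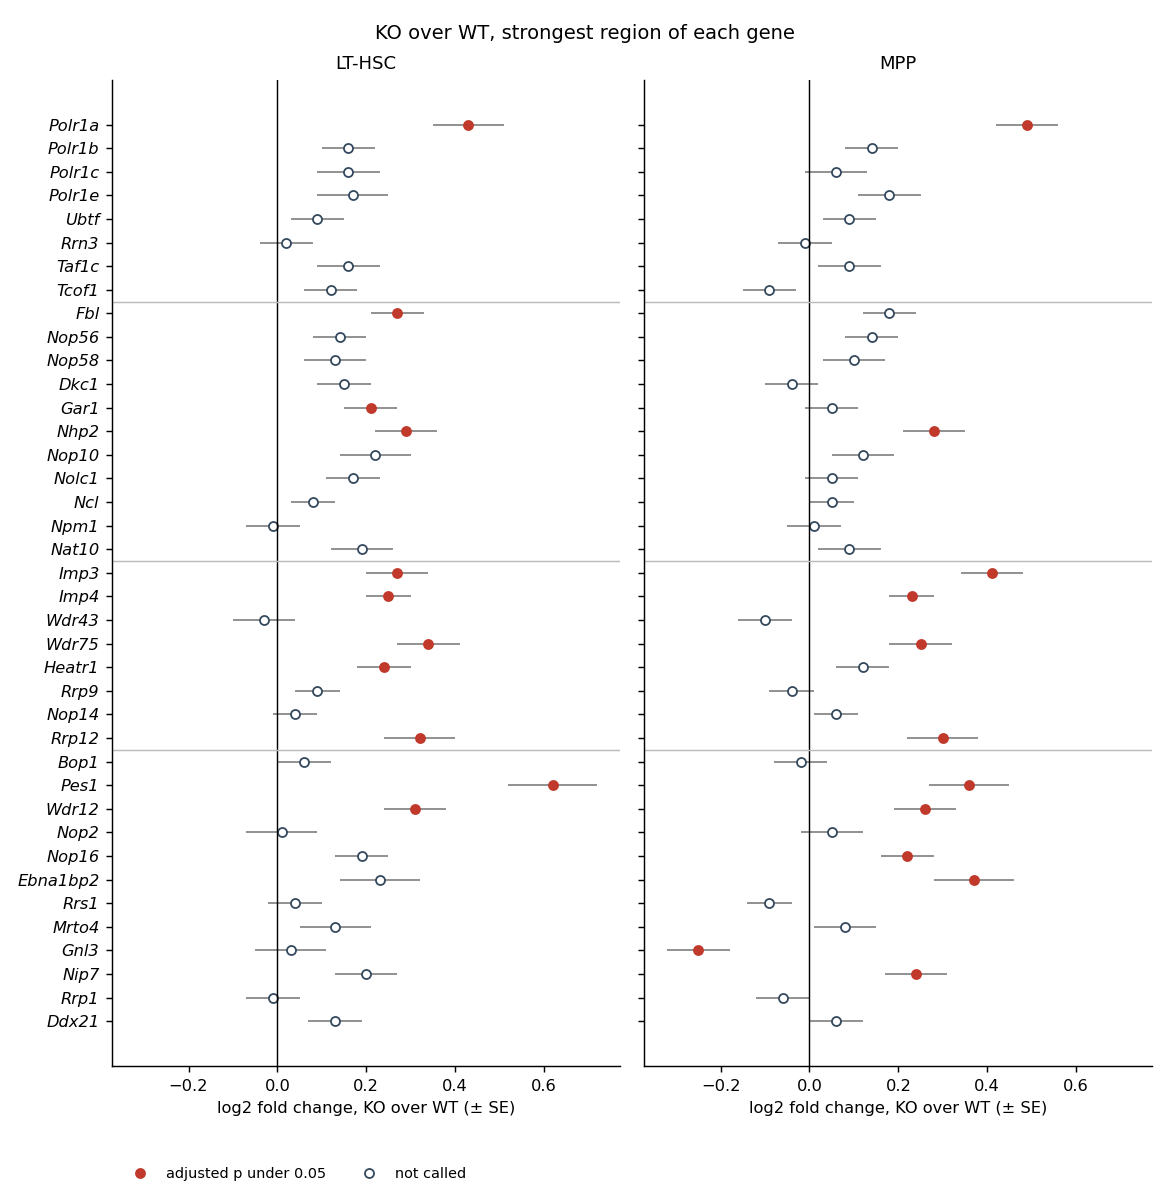
Log2 fold change of KO over WT (with its SE) of the lead region of each gene in LT-HSC (left) and MPP (right), in the order of roles, with lines between RNA polymerase I, snoRNP, small subunit and large subunit genes. Filled points passed an adjusted p of 0.05, 11 to the right of 0 in each population and 1 to the left, Gnl3 in MPP.

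**Figure D3:**
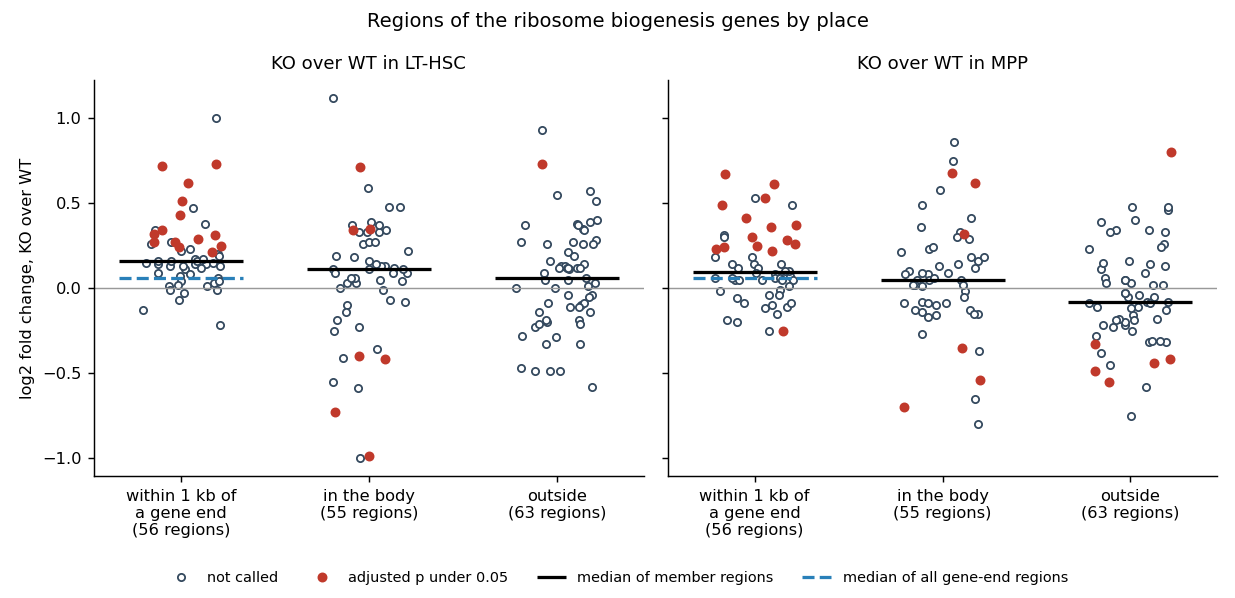
Log2 fold change of KO over WT of the 174 tested regions of the gene set, grouped by place, in LT-HSC (left) and MPP (right). Filled points passed an adjusted p of 0.05, solid lines are medians of the points and the dashed line that of all gene-end regions measured. At gene ends 14 of the called regions lie above 0 in each population, while away from gene ends called regions lie on both sides.

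RNA polymerase I genes gave 1 called lead region of 8 (12.5%), that of Polr1a, and it was higher in KO in both populations. Of all gene-end regions of at least 10 CPM 14.5% were higher in KO LT-HSC and 17.4% in KO MPP. Differences between the groups of genes by role were not tested. Polr1a encodes the largest, catalytic subunit of the polymerase. Its start region (chr6:71908587-71909285) is shared with the start or the end of Ptcd3. It held 27.6, 26.2 and 28.5 CPM in KO LT-HSC, against 20.5, 21.9 and 18.8 CPM in WT LT-HSC (log2 fold change 0.43 ± 0.08 SE, adjusted p = 0.00117). In KO MPP it held 31.8, 34.0 and 33.6 CPM, against 26.0, 23.2 and 21.6 CPM in WT MPP (0.49 ± 0.07, adjusted p = 0.000145). All KO libraries lay above all WT libraries of the same population, and both calls held without any 1 library. With gene-end share as covariate the LT-HSC call ended (adjusted p = 0.0762).

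A region in the Polr1a body went the other way. At chr6:71925235-71925698, about 16414 bp from the annotated start, it held 4.18, 5.45 and 3.83 CPM in KO LT-HSC, against 5.51, 7.92 and 9.0 CPM in WT LT-HSC (log2 fold change -0.73 ± 0.14, adjusted p = 0.00298), and 8.30, 8.42 and 7.49 CPM in KO MPP, against 12.1, 12.4 and 14.9 CPM in WT MPP (-0.70 ± 0.13, adjusted p = 0.000751). This was the region called lower in both populations, it did not overlap between genotypes, and its calls held without any 1 library, the LT-HSC call ending with the covariate (adjusted p = 0.0598). Further downstream, outside the body at chr6:71981389-71981798, KO MPP held 10.2, 10.1 and 7.76 CPM, against 10.9, 13.3 and 13.2 CPM in WT MPP (-0.42 ± 0.11, adjusted p = 0.0116). That call ended without WT MPP 2 (adjusted p = 0.0572) and without KO MPP 3 (0.125), and in LT-HSC the region was at -0.19 ± 0.11 (adjusted p = 0.345).

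**Figure D4:**
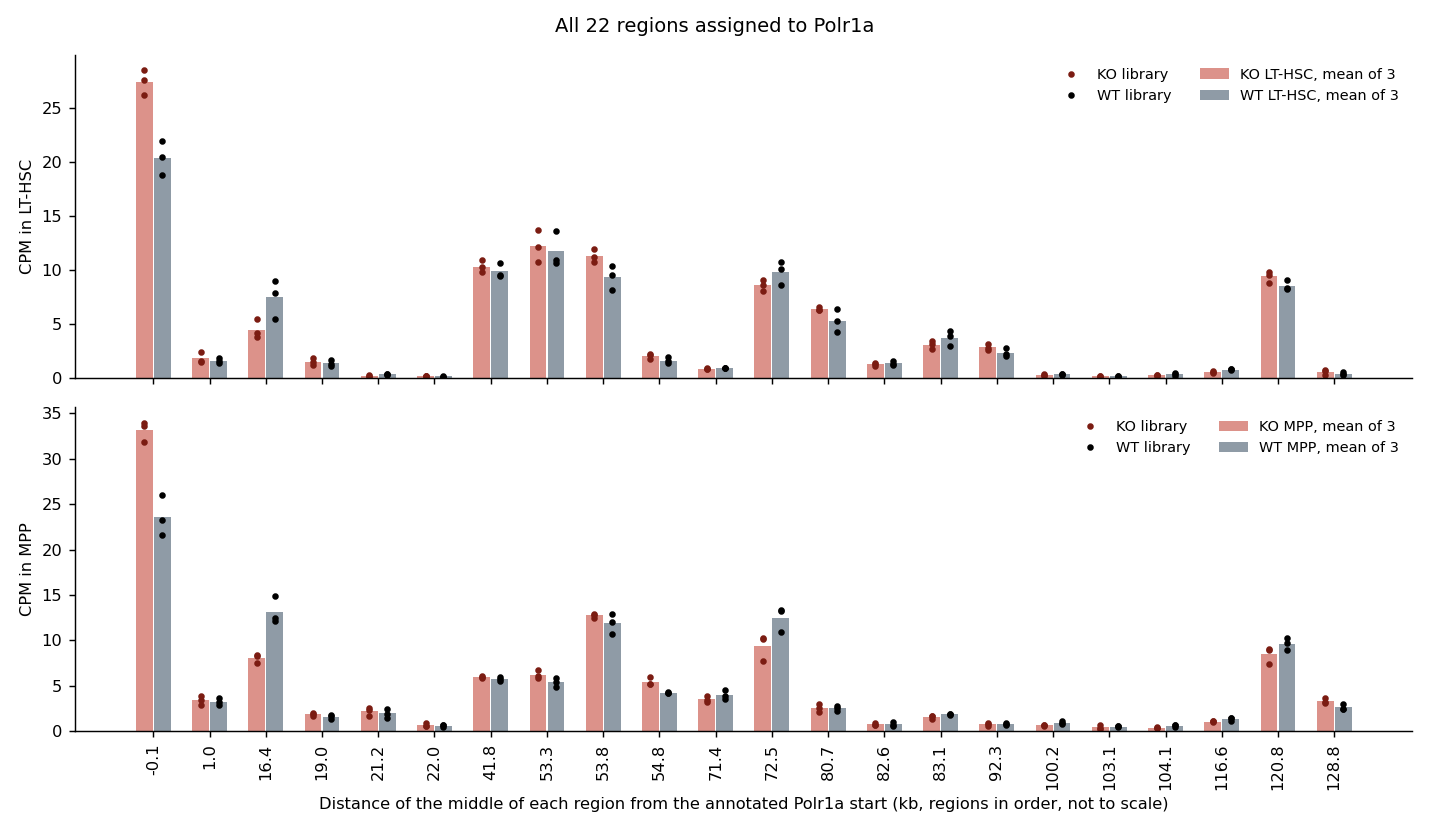
Accessibility, in CPM, of all 22 regions that belong to Polr1a, ordered by distance of their middle from the annotated start (kb, not to scale), in LT-HSC (top) and MPP (bottom). Bars are means of 3 libraries and points single libraries, with KO left of WT. KO bars are taller at the start and shorter at 16.4 kb in both populations.

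Ubtf, the gene of the ribosomal DNA binding factor UBF, had its strongest region in the gene body (chr11:102308932-102309371), at 42.8, 41.0 and 43.0 CPM in KO LT-HSC, against 38.2, 39 and 41.8 CPM in WT LT-HSC (log2 fold change 0.09 ± 0.06, adjusted p = 0.434). KO MPP held 63.2, 58.4 and 56.3 CPM, against 57.8, 57.0 and 52.6 CPM in WT MPP (0.09 ± 0.06, adjusted p = 0.408). The genotypes overlapped there in both populations. A weaker region near an annotated start (chr11:102320150-102320602) did pass. It held 9.03, 9.76 and 10.2 CPM in KO LT-HSC, against 7.66, 7.73 and 7.24 CPM in WT LT-HSC (0.35 ± 0.10, adjusted p = 0.0312), and 8.54, 9.28 and 9.43 CPM in KO MPP, against 6.04, 5.69 and 5.28 CPM in WT MPP (0.68 ± 0.10, adjusted p = 9.12e-05). The MPP call held under every alternative run for it, while the LT-HSC call ended without any 1 library other than KO LT-HSC 1 (adjusted p = 0.0693, 0.058 and 0.081 without WT LT-HSC 1, 2 and 3, and 0.102 and 0.113 without KO LT-HSC 2 and 3).

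Another pair of Ubtf regions was called in 1 population each. The region at chr11:102317240-102317641, which overlaps a promoter window, held 4.71, 5.70 and 4.32 CPM in KO LT-HSC, against 6.25, 7.16 and 6.28 CPM in WT LT-HSC (log2 fold change -0.42 ± 0.12, adjusted p = 0.0337). It was lower in every KO than in every WT library, and the call ended without WT LT-HSC 1 (adjusted p = 0.0553), WT LT-HSC 2 (0.135), KO LT-HSC 1 (0.131) and KO LT-HSC 3 (0.145). Its neighbour at chr11:102318119-102318566 held 12.1, 12.6 and 12.4 CPM in KO MPP, against 10.3, 10 and 9.37 CPM in WT MPP (0.32 ± 0.10, adjusted p = 0.0367), a call that ended without any 1 of the 6 MPP libraries (adjusted p = 0.0581 to 0.129).

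Polr1e, which encodes a further polymerase subunit, had a weak second region near its start (chr4:45019029-45019430) at 1.17, 2.25 and 2.02 CPM in KO MPP, against 1.48, 1.13 and 0.846 CPM in WT MPP (log2 fold change 0.67 ± 0.22, adjusted p = 0.0471). The genotypes overlapped, and the call ended without WT MPP 2 (adjusted p = 0.122), WT MPP 3 (0.155), KO MPP 2 (0.281) and KO MPP 3 (0.173). It also ended by DESeq2 (adjusted p = 0.0683), with total-count scaling (0.059), with a filter of 1 CPM in 3 libraries (0.0507), with only the groups compared (0.064) and with the gene-end covariate (0.388). Tcof1, the gene of treacle, a nucleolar partner of UBF, had 22.3, 20.3 and 19.2 CPM in KO MPP at a body region (chromosome 18, 60830688 to 60831175), against 25.2, 29.6 and 23.1 CPM in WT MPP (-0.35 ± 0.08, adjusted p = 0.00766). Every KO MPP library lay below every WT MPP library, and the call ended without WT MPP 2 (adjusted p = 0.0847) and KO MPP 3 (0.0652). The lead regions of Polr1b, Polr1c and Polr1e, of the initiation factor gene Rrn3, of the SL1 subunit gene Taf1c and of Tcof1 were not called, with log2 fold changes of 0.02 to 0.17 in LT-HSC and -0.09 to 0.18 in MPP.

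Of the 11 snoRNP, modification and chaperone genes 3 (27.3%) had a higher lead region in KO LT-HSC and 1 (9.09%) in KO MPP. The shares of all gene-end regions of at least 10 CPM were 14.5% and 17.4%. Nhp2, a core protein of the H/ACA snoRNPs that carry out pseudouridylation, passed in both. Its start region (chr11:51619396-51619932) held 41.1, 40.3 and 43.8 CPM in KO LT-HSC, against 32.9, 35.6 and 33.7 CPM in WT LT-HSC (log2 fold change 0.29 ± 0.07, adjusted p = 0.0101), and 46.9, 45.7 and 46.4 CPM in KO MPP, against 41.9, 38.0 and 34.2 CPM in WT MPP (0.28 ± 0.07, adjusted p = 0.00673). KO libraries lay above WT libraries in both populations. The LT-HSC call ended without WT LT-HSC 1 (adjusted p = 0.0549) and KO LT-HSC 3 (0.0574). Gar1, another H/ACA protein, held 39.9, 41.8 and 42.2 CPM in KO LT-HSC at its start (chr3:129831011-129831657), against 35.9, 36.4 and 34.8 CPM in WT LT-HSC (0.21 ± 0.06, adjusted p = 0.0476), a call that ended without any 1 of the 6 libraries (adjusted p = 0.0692 to 0.147).

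Fbl encodes fibrillarin, the methyltransferase of the C/D snoRNPs, and its lead region (chr7:28179199-28180121) is shared with the start or the end of Dyrk1b. It held 69.0, 65.0 and 60.9 CPM in KO LT-HSC, against 54.4, 55.2 and 52.4 CPM in WT LT-HSC (log2 fold change 0.27 ± 0.06, adjusted p = 0.00845; 0.0689 without KO LT-HSC 1). In KO MPP it held 71.0, 71.5 and 72.3 CPM, against 68.5, 62.2 and 59.1 CPM in WT MPP (0.18 ± 0.06, adjusted p = 0.0553), and it passed there without WT MPP 1 (adjusted p = 0.0214) and with the replicate block (0.03). At the lead region the KO libraries lay above the WT libraries in both populations. The regions at the other end of Fbl were called in neither population. In LT-HSC they were at 0.27 ± 0.10 (chr7:28168622-28169072, adjusted p = 0.0977) and 0.14 ± 0.08 (chr7:28169507-28169962, adjusted p = 0.283). No promoter window was given for Fbl, so which end holds its start was not determined here. Nop56, Nop58, Dkc1, Nop10, Nolc1 and Nat10 were not called at their lead regions, with log2 fold changes of 0.13 to 0.22 in LT-HSC and -0.04 to 0.14 in MPP.

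Nucleolin and nucleophosmin, abundant nucleolar chaperones encoded by Ncl and Npm1, showed no call at their lead regions. The Ncl start region (chr1:86359189-86359697) held 98.7, 99.9 and 104 CPM in KO LT-HSC, against 95.2, 92.2 and 98.2 CPM in WT LT-HSC (log2 fold change 0.08 ± 0.05, adjusted p = 0.381), and 115, 106 and 109 CPM in KO MPP, against 111, 106 and 102 CPM in WT MPP (0.05 ± 0.05, adjusted p = 0.628). The Npm1 lead region (chr11:33162973-33163505) held 37.7, 35.5 and 38.3 CPM in KO LT-HSC, against 38.6, 37.7 and 35.7 CPM in WT LT-HSC (-0.01 ± 0.06, adjusted p = 0.963), and 54.6, 55.1 and 56.7 CPM in KO MPP, against 59.0, 56.5 and 49.9 CPM in WT MPP (0.01 ± 0.06, adjusted p = 0.963). Other regions of both genes did pass.

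At the far end of Ncl (chr1:86344296-86344777) KO LT-HSC held 2.20, 3.36 and 2.14 CPM, against 1.43, 1.29 and 1.91 CPM in WT LT-HSC (log2 fold change 0.73 ± 0.18, adjusted p = 0.0151). Within its body (chr1:86347080-86347530) KO LT-HSC held 3.66, 4.0 and 3.16 CPM, against 2.09, 2.02 and 2.55 CPM in WT LT-HSC (0.71 ± 0.16, adjusted p = 0.00745). Both are weak regions in which no KO library met a WT library. The first call ended without WT LT-HSC 1 (adjusted p = 0.0605), WT LT-HSC 2 (0.0749) and KO LT-HSC 2 (0.168), and the other without KO LT-HSC 2 (0.0557).

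Regions before the Ncl start were lower in KO MPP. They lay at chr1:86368103-86368555, with 2.85, 2.30 and 2.37 CPM in KO MPP, against 3.01, 3.40 and 4.6 CPM in WT MPP (log2 fold change -0.55 ± 0.16, adjusted p = 0.0322), and at chr1:86371944-86372381, with 7.87, 7.18 and 7.41 CPM in KO MPP, against 10.1, 8.50 and 9.71 CPM in WT MPP (-0.33 ± 0.10, adjusted p = 0.0417). Outside Npm1 (chr11:33176560-33176988) KO MPP held 3.16, 3.18 and 2.88 CPM, against 4.51, 3.90 and 4.57 CPM in WT MPP (-0.49 ± 0.13, adjusted p = 0.0145). In all 3 the genotypes did not overlap. The first Ncl call ended without WT MPP 2 and 3 and KO MPP 2 and 3 (adjusted p = 0.051, 0.184, 0.153 and 0.128), the other without any 1 library but WT MPP 2 (0.0531 to 0.166), and the Npm1 call without WT MPP 1 (0.0579) and KO MPP 3 (0.0851). By DESeq2 neither Ncl region passed (adjusted p = 0.0709 and 0.0551).

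A region outside Nop58, a C/D snoRNP core gene (chr1:59719889-59720336, 35106 bp from the start), was higher in KO MPP, at 2.38, 2.91 and 2.59 CPM, against 1.55, 1.38 and 1.66 CPM in WT MPP (log2 fold change 0.80 ± 0.17, adjusted p = 0.00323). The call held under every alternative run for it. In KO LT-HSC the region held 2.39, 3.29 and 3.38 CPM, against 2.15, 2.58 and 2.06 CPM in WT LT-HSC (0.39 ± 0.16, adjusted p = 0.167), with overlapping genotypes.

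Small subunit processing genes had 5 of 8 lead regions higher in KO LT-HSC and 4 of 8 in KO MPP. Among all gene-end regions of at least 10 CPM 14.5% were higher in KO LT-HSC and 17.4% in KO MPP. Whether this group of genes differs from the other groups by role was not tested. Imp3 and Imp4 encode partner proteins of the small subunit processome. The Imp3 start region (chr9:56937224-56937845) held 37.9, 38.2 and 38.1 CPM in KO LT-HSC, against 32.6, 32.8 and 29.5 CPM in WT LT-HSC (log2 fold change 0.27 ± 0.07, adjusted p = 0.0200), and 45.5, 43.1 and 44.6 CPM in KO MPP, against 36.2, 33.9 and 29.9 CPM in WT MPP (0.41 ± 0.07, adjusted p = 0.000296). The Imp4 start region (chr1:34439260-34439994, shared with Ccdc115) held 101, 94.2 and 97.9 CPM in KO LT-HSC, against 84.0, 84.2 and 78.9 CPM in WT LT-HSC (0.25 ± 0.05, adjusted p = 0.00545), and 94.2, 96.9 and 94.6 CPM in KO MPP, against 85.3, 79.6 and 78.9 CPM in WT MPP (0.23 ± 0.05, adjusted p = 0.00599). In each of these 4 comparisons the 3 KO libraries lay above the 3 WT libraries. The Imp4 calls and the Imp3 call in MPP held without any 1 library, the Imp4 call in LT-HSC ended with the loess scaling (adjusted p = 0.0874), both Imp4 calls ended with the gene-end covariate (0.0879 in LT-HSC and 0.0949 in MPP), and the Imp3 call in LT-HSC ended without WT LT-HSC 3 (adjusted p = 0.0872), KO LT-HSC 1 (0.0578), KO LT-HSC 2 (0.0737) and KO LT-HSC 3 (0.0555).

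Wdr75 and Heatr1 encode proteins of the processome that also bear on ribosomal DNA transcription. At the lead region of Wdr75 (chr1:45795242-45795650) KO LT-HSC held 39.3, 35.7 and 31.9 CPM, against 28.5, 30.7 and 25.5 CPM in WT LT-HSC (log2 fold change 0.34 ± 0.07, adjusted p = 0.00724; 0.0771 without KO LT-HSC 1), and KO MPP held 45.0, 46.3 and 43.4 CPM, against 39.5, 38.4 and 35.3 CPM in WT MPP (0.25 ± 0.07, adjusted p = 0.0271). The MPP call ended without any 1 library but WT MPP 1 (adjusted p = 0.0517 to 0.125). The Heatr1 start region (chr13:12394957-12395435) held 60.1, 61.4 and 64.0 CPM in KO LT-HSC, against 54.7, 54.2 and 48.1 CPM in WT LT-HSC (0.24 ± 0.06, adjusted p = 0.0274). Its call ended without WT LT-HSC 3 (adjusted p = 0.132) and KO LT-HSC 1, 2 and 3 (0.0512, 0.0826 and 0.107), and in MPP the region was at 0.12 ± 0.06 (adjusted p = 0.261). A Heatr1 body region (chr13:12412036-12412510) held 10.2, 10 and 9.98 CPM in KO LT-HSC, against 8.03, 8.65 and 7.21 CPM in WT LT-HSC (0.34 ± 0.09, adjusted p = 0.0304), and ended without any 1 library but WT LT-HSC 2 (adjusted p = 0.0673 to 0.117). All of these regions had every KO above every WT library in the populations in which they were called.

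Rrp12, whose yeast counterpart acts in the export of ribosomal subunits from the nucleus, had regions that moved in both directions. Its lead region (chr19:41895969-41896427) held 28.7, 30.5 and 30.5 CPM in KO LT-HSC, against 26.5, 21.2 and 24.0 CPM in WT LT-HSC (log2 fold change 0.32 ± 0.08, adjusted p = 0.0177), and 25.4, 27.7 and 26.2 CPM in KO MPP, against 24.3, 19.9 and 20.4 CPM in WT MPP (0.30 ± 0.08, adjusted p = 0.0190). A weak body region (chr19:41874251-41874746) held 1.82, 1.2 and 2.63 CPM in KO LT-HSC, against 4.53, 3.40 and 3.07 CPM in WT LT-HSC (-0.99 ± 0.21, adjusted p = 0.00467). Another (chr19:41869912-41870361) held 2.07, 1.97 and 2.35 CPM in KO MPP, against 1.35, 1.54 and 1.22 CPM in WT MPP (0.62 ± 0.20, adjusted p = 0.0436). The genotypes did not overlap in any of these. The lead calls ended without WT LT-HSC 2, KO LT-HSC 2 and KO LT-HSC 3 (adjusted p = 0.112, 0.0832 and 0.0636) and, in MPP, without any library numbered 2 or 3 (0.0572 to 0.114), the fall without KO LT-HSC 2 (0.0608), and the rise in the body without any 1 MPP library (0.0577 to 0.185), by DESeq2 (0.0766) and with total-count scaling (0.0554).

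Away from the lead regions, Rrp9, a snoRNP protein of the processome, had a body region (chr9:106481047-106481482) at 7.45, 5.68 and 6.09 CPM in KO MPP, against 9.42, 10.2 and 7.92 CPM in WT MPP (log2 fold change -0.54 ± 0.12, adjusted p = 0.00339), and this call held under every alternative run for it. A region outside Wdr43, another processome gene (chr17:71663427-71663982), held 1.82, 2.12 and 1.96 CPM in KO LT-HSC, against 1.43, 1.12 and 0.984 CPM in WT LT-HSC (0.73 ± 0.20, adjusted p = 0.0320), and ended without any 1 library but WT LT-HSC 1 (adjusted p = 0.0589 to 0.126). In both the genotypes did not overlap. The lead regions of Wdr43, Rrp9 and Nop14 were not called, with log2 fold changes of -0.03 to 0.09 in LT-HSC and -0.10 to 0.06 in MPP.

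Large subunit processing genes had 2 of 12 lead regions (16.7%) higher in KO LT-HSC, and 5 higher and 1 lower in KO MPP (41.7% and 8.33%). Of all gene-end regions of at least 10 CPM 14.5% were higher in KO LT-HSC, and 17.4% were higher and 2.1% lower in KO MPP. Pes1 and Wdr12 encode members of the PeBoW complex, which acts on the precursors of the large subunit RNAs, and both were higher in both populations. The Pes1 start region (chr11:3963763-3964203) held 14.3, 13.2 and 12.3 CPM in KO LT-HSC, against 9.01, 9.55 and 7.53 CPM in WT LT-HSC (log2 fold change 0.62 ± 0.10, adjusted p = 0.000599), the largest change of a lead region between genotypes here, and the call held under every alternative run for it. In KO MPP it held 16.2, 18.3 and 18.1 CPM, against 13.6, 15.4 and 12 CPM in WT MPP (0.36 ± 0.09, adjusted p = 0.0156; 0.0771, 0.0861 and 0.0742 without WT MPP 3, KO MPP 2 and KO MPP 3). A weaker region just inside the gene (chr11:3964465-3965176) held 3.52, 3.47 and 3.87 CPM in KO LT-HSC, against 1.52, 2.47 and 2.58 CPM in WT LT-HSC (0.72 ± 0.17, adjusted p = 0.0101; 0.0802 without WT LT-HSC 1), and 4.68, 6.34 and 5.55 CPM in KO MPP, against 3.96, 3.44 and 3.59 CPM in WT MPP (0.61 ± 0.14, adjusted p = 0.00665; 0.0799 without KO MPP 2). No KO library met a WT library at either region.

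The Wdr12 start region (chr1:60098035-60098497, shared with Carf) held 37.0, 32.9 and 35.4 CPM in KO LT-HSC, against 27.1, 30.4 and 27.6 CPM in WT LT-HSC (log2 fold change 0.31 ± 0.07, adjusted p = 0.00818), and 43.5, 43.9 and 46.2 CPM in KO MPP, against 38.2, 38.9 and 34.0 CPM in WT MPP (0.26 ± 0.07, adjusted p = 0.0120). These calls ended without WT LT-HSC 1 (adjusted p = 0.0514) or KO LT-HSC 1 (0.0594), and without WT MPP 3 (0.053) or KO MPP 3 (0.0726). The partner of both in the complex, Bop1, was not called at its lead region (0.06 ± 0.06 in LT-HSC and -0.02 ± 0.06 in MPP). A region in its body that also covers Scx (chr15:76457255-76457771) was lower in KO LT-HSC, at 8.37, 8.46 and 7.84 CPM, against 10.4, 12.7 and 9.52 CPM in WT LT-HSC (-0.40 ± 0.11, adjusted p = 0.0369), a call that ended without any 1 library but WT LT-HSC 3 (adjusted p = 0.0618 to 0.219).

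Assembly factor genes Ebna1bp2, Nip7 and Nop16 had higher lead regions in KO MPP, each of them shared with the start or the end of another gene. Ebna1bp2 (chr4:118620577-118620981, shared with Cfap57) held 18, 17.8 and 19.0 CPM in KO MPP, against 15.6, 14.3 and 12.4 CPM in WT MPP (log2 fold change 0.37 ± 0.09, adjusted p = 0.00834; 0.0523 without KO MPP 3). Nip7 (chr8:107056473-107056947, shared with Cog8) held 40.2, 39.2 and 41.8 CPM in KO MPP, against 36.2, 32.8 and 33.3 CPM in WT MPP (0.24 ± 0.07, adjusted p = 0.0181; 0.0794 and 0.0964 without WT MPP 2 and KO MPP 3). Nop16 (chr13:54589968-54590369, shared with Higd2a) held 54.0, 47.4 and 50 CPM in KO MPP, against 46.8, 42.1 and 40.8 CPM in WT MPP (0.22 ± 0.06, adjusted p = 0.0245). Its call ended without WT MPP 2, WT MPP 3, KO MPP 1 and KO MPP 3 (adjusted p = 0.089, 0.0777, 0.117 and 0.07). KO libraries lay above WT libraries at all 3, and in LT-HSC their log2 fold changes were 0.23 ± 0.09, 0.20 ± 0.07 and 0.19 ± 0.06, none called (adjusted p = 0.143, 0.0802 and 0.0715).

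Gnl3, the gene of nucleostemin, a nucleolar GTPase of stem and progenitor cells, had the 1 lead region that was lower in KO (chr14:31018838-31019335, shared with Pbrm1). It held 30.6, 29.9 and 29.3 CPM in KO MPP, against 37.2, 36.6 and 32.9 CPM in WT MPP (log2 fold change -0.25 ± 0.07, adjusted p = 0.0185). The call ended without any library but WT MPP 3 or KO MPP 1 (adjusted p = 0.0714 to 0.0868), and in LT-HSC the region was at 0.03 ± 0.08 (adjusted p = 0.865). Ddx21, an RNA helicase of ribosomal DNA transcription and RNA processing, rose in both populations at a weak region inside its start (chr10:62601364-62601799), with 4.49, 5.98 and 4.54 CPM in KO LT-HSC, against 3.21, 3.62 and 3.68 CPM in WT LT-HSC (0.51 ± 0.14, adjusted p = 0.0319), and 3.39, 3.83 and 4.26 CPM in KO MPP, against 2.36, 2.54 and 3.21 CPM in WT MPP (0.53 ± 0.15, adjusted p = 0.0216). Its calls ended without WT LT-HSC 1 and 2 and KO LT-HSC 2 (adjusted p = 0.118, 0.0601 and 0.226), and without WT MPP 1 and 2 and KO MPP 2 and 3 (0.105, 0.0799, 0.0728 and 0.132). Outside Rrs1, a large subunit assembly gene, KO MPP held 7.37, 6.62 and 6.74 CPM at chr1:9541235-9541669, against 8.57, 8.73 and 10.9 CPM in WT MPP (-0.44 ± 0.13, adjusted p = 0.0307; 0.145, 0.131 and 0.113 without WT MPP 3, KO MPP 2 and KO MPP 3). The lead regions of Nop2, Rrs1, Mrto4, Rrp1 and Ddx21 were not called, with log2 fold changes of -0.01 to 0.13 in LT-HSC and -0.09 to 0.08 in MPP.

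Whether the genotype difference itself differed between MPP and LT-HSC was tested in the same fit. Of the 174 regions 0 passed in either direction, where 0.00805% of all tested regions had a higher KO over WT ratio in MPP and 0.0% a lower one. The lowest adjusted p was 0.471, 20 of the 174 regions had an unadjusted p under 0.05, and DESeq2 also called 0. The share of all tested regions with an unadjusted p under 0.05 was not computed, so such counts have no background here. Of the lead regions 3 had an unadjusted p under 0.05, those of Gnl3 (difference of log2 fold changes -0.28 ± 0.10, adjusted p = 0.529), Tcof1 (-0.21 ± 0.08, adjusted p = 0.567) and Dkc1 (-0.19 ± 0.09, adjusted p = 0.657). Calls present in 1 population only, such as those of Ebna1bp2 and Gar1, are thus not shown to differ between populations.

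The comparison of MPP with LT-HSC asked how openness differs between progenitors and stem cells, and more regions of the gene set were higher than lower in MPP. In KO, 73 of 174 regions were higher in MPP than in LT-HSC and 31 were lower (42.0% and 17.8%), where the shares over all regions tested were 33.3% and 34.4%. In WT, 83 were higher and 33 lower (47.7% and 19.0%), where they were 34.6% and 35.2%. Among lead regions 24 of 39 (61.5%) were higher and 0 lower in each genotype, against 42.3% higher and 19.8% lower in KO and 45.2% higher and 20.7% lower in WT for all gene-end regions of at least 10 CPM. The median log2 fold change of lead regions was 0.16 in KO (0.10 for those strong gene-end regions) and 0.21 in WT (0.12). With the loess scaling 16 lead regions were higher and 5 lower in KO, and 17 and 5 in WT, and with gene-end share as covariate 7 and 1 in KO and 9 and 0 in WT. Gene-end share was higher in every MPP than in every LT-HSC library of the same genotype, so the covariate overlaps with population. The comparisons of populations use the same libraries as those of KO with WT. Of the 73 and 83 higher regions 67 were higher in both genotypes, and of the 31 and 33 lower ones 27 were lower in both. As shares of the calls in KO and in WT these were 91.8% and 80.7% of the higher and 87.1% and 81.8% of the lower regions, near the 88.9% and 85.6%, and the 89.7% and 87.7%, over all tested regions. The marker sums of other cells given above moved with the population too, and their part in these results was not tested.

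**Figure D5:**
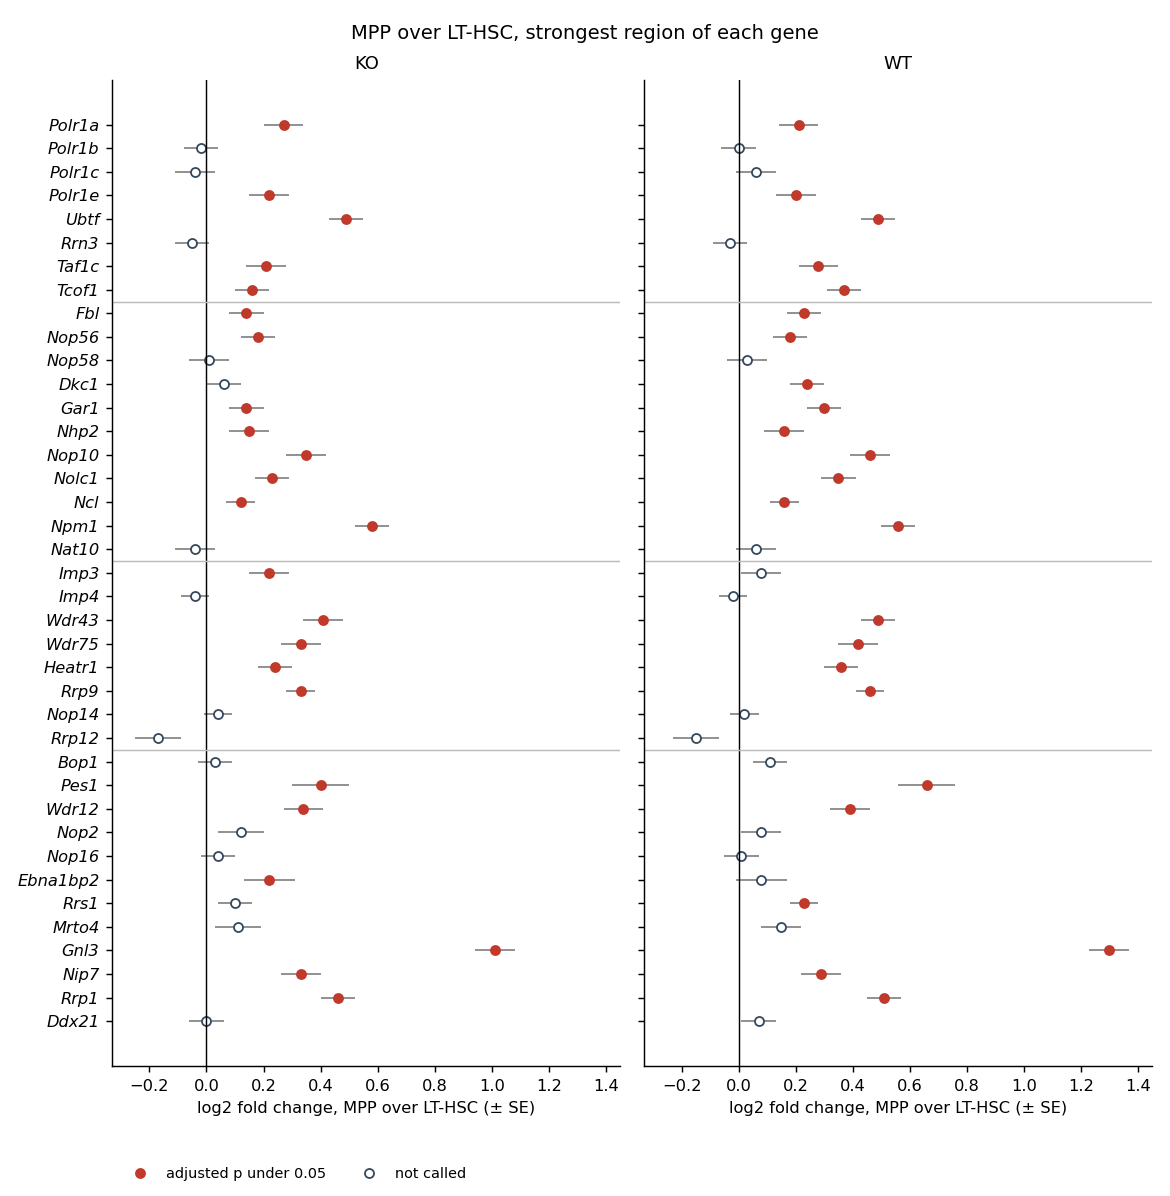
Log2 fold change of MPP over LT-HSC (with its SE) of the lead region of each gene in KO (left) and WT (right), in the order of roles. Filled points passed an adjusted p of 0.05, and 24 lie to the right of 0 in each genotype, with Gnl3 farthest out.

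The lead regions of the 8 RNA polymerase I genes were higher in MPP for 5 in each genotype. The snoRNP group had 8 of 11 in KO and 9 in WT. The small subunit group had 5 of 8 in KO and 4 in WT, and the large subunit group 6 of 12 in each. The shares of all gene-end regions of at least 10 CPM were 42.3% in KO and 45.2% in WT, and differences between the groups were not tested. Gnl3 stood out. Its lead region held 30.6, 29.9 and 29.3 CPM in KO MPP, against 15.8, 14.2 and 14.3 CPM in KO LT-HSC (a log2 difference of 1.01 ± 0.07, adjusted p = 1.47e-13). The values in WT were 37.2, 36.6 and 32.9 CPM in MPP, against 14.3, 15.1 and 14.1 CPM in LT-HSC (1.30 ± 0.07, adjusted p = 1.6e-16). Pes1 was higher in MPP by 0.40 ± 0.10 in KO (adjusted p = 0.000547, 0.325 with the gene-end covariate), and in WT it held 13.6, 15.4 and 12 CPM in MPP, against 9.01, 9.55 and 7.53 CPM in LT-HSC (0.66 ± 0.10, adjusted p = 7.31e-07). Npm1 was higher by 0.58 ± 0.06 in KO (adjusted p = 1.82e-09), and in WT it held 59.0, 56.5 and 49.9 CPM in MPP, against 38.6, 37.7 and 35.7 CPM in LT-HSC (0.56 ± 0.06, adjusted p = 2.16e-09). At all 3 genes the MPP libraries lay above the LT-HSC libraries in both genotypes.

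At the other end, 3 lead regions had slightly negative values that did not pass. Rrp12 held 24.3, 19.9 and 20.4 CPM in WT MPP, against 26.5, 21.2 and 24.0 CPM in WT LT-HSC (log2 fold change -0.15 ± 0.08, adjusted p = 0.103). It passed as lower without WT LT-HSC 2 (adjusted p = 0.0192) or WT MPP 1 (0.013), with total-count scaling (0.0416), with the loess scaling (0.0143) and with the replicate block (0.0319). In KO it was at -0.17 with an adjusted p of 0.0559. There it passed as lower with the block (0.00947), without KO MPP 2 (0.0485) and with total-count scaling (0.0426). It also passed with the loess scaling (0.0188) and with only the groups compared (0.029). Rrn3 held 34.7, 34.6 and 33.5 CPM in WT MPP, against 35.1, 35.8 and 33.8 CPM in WT LT-HSC (-0.03 ± 0.06, adjusted p = 0.720). Imp4 held 85.3, 79.6 and 78.9 CPM in WT MPP, against 84.0, 84.2 and 78.9 CPM in WT LT-HSC (-0.02 ± 0.05, adjusted p = 0.757). MPP and LT-HSC libraries overlapped at all 3 genes, and the loess scaling called Rrn3 and Imp4 as lower (adjusted p = 0.0282 and 2.03e-05).

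Of the genes followed whatever their result, Ubtf was higher in MPP at its lead region by 0.49 ± 0.06 in KO (adjusted p = 2.97e-08) and 0.49 ± 0.06 in WT (adjusted p = 1.83e-08), calls held under every alternative run for them. Polr1a was higher by 0.27 ± 0.07 in KO (adjusted p = 0.00161) and 0.21 ± 0.07 in WT (adjusted p = 0.0126), Fbl by 0.14 ± 0.06 (0.0395) and 0.23 ± 0.06 (0.00113), and Ncl by 0.12 ± 0.05 (0.0388) and 0.16 ± 0.05 (0.0073). All 6 of these calls ended with gene-end share as covariate (adjusted p = 0.373 to 0.948). The loess scaling ended them too except that of Polr1a in KO, with adjusted p = 0.0741 for Polr1a in WT, 0.98 and 0.414 for Fbl in KO and WT, and 0.156 and 0.101 for Ncl in KO and WT. Without 1 library the Polr1a call in WT ended for WT LT-HSC 3 (adjusted p = 0.0822) and WT MPP 1 (0.132), that of Fbl in KO for every KO library but KO LT-HSC 1 (0.0603 to 0.208), and that of Ncl in KO for KO LT-HSC 1 and 2 and KO MPP 1 and 3 (0.128, 0.101, 0.168 and 0.0672).

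Some wide contrasts between the populations lay away from the lead regions, in weak regions. These were chosen after their values were seen. A Tcof1 body region (chromosome 18, 60843680 to 60844240) held 6.55, 7.18 and 9.16 CPM in KO MPP, against 1.21, 1.03 and 1.34 CPM in KO LT-HSC (a log2 difference of 2.69 ± 0.17, adjusted p = 3.17e-15), and 9.15, 8.73 and 7.54 CPM in WT MPP, against 1.35, 1.01 and 0.868 CPM in WT LT-HSC (2.98 ± 0.16, adjusted p = 7.14e-17). The Rrp9 body region that was lower in KO MPP was far more open in MPP than in LT-HSC, by 2.68 ± 0.16 in KO and 2.86 ± 0.14 in WT. In the other direction, a region outside Ebna1bp2 (chr4:118633831-118634275) held 0.877, 0.730 and 0.609 CPM in WT MPP, against 4.24, 4.10 and 2.84 CPM in WT LT-HSC (-2.31 ± 0.22, adjusted p = 8.57e-11), and a Bop1 body region (chr15:76461176-76461861) 3.61, 3.25 and 4.09 CPM in WT MPP, against 12.9, 11.7 and 9.99 CPM in WT LT-HSC (-1.67 ± 0.12, adjusted p = 2.5e-13). Lead and other regions of a gene could thus differ in direction, and in KO 17 of the 39 genes (43.6%) had both a higher and a lower region in MPP, in WT 13 (33.3%). Over all 18815 genes with a tested region the shares were larger, at 54.3% in KO and 56.3% in WT. Such a gene needs at least 2 regions. Among the 31 members with at least 2 tested regions the shares were 54.8% in KO and 41.9% in WT. For all 16480 such genes they were 62.0% and 64.3%.

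A wider list of 99 genes with the same roles, none of them among the 39, was read in the same fit, with 524 tested regions. Of these 29 (5.53%) were higher and 9 (1.72%) lower in KO LT-HSC, where the shares over all tested regions were 3.27% and 1.47%, and 47 (8.97%) higher and 15 (2.86%) lower in KO MPP, where they were 5.12% and 3.59%. Of the 99 lead regions 22 were higher and 0 lower in LT-HSC (22.2%), and 24 higher and 2 lower in MPP (24.2% and 2.02%), against the shares of strong gene-end regions given above. Between populations, 47 of the 99 lead regions (47.5%) were higher in MPP and 3 (3.03%) lower for KO, against 42.3% and 19.8% of all gene-end regions of at least 10 CPM. For WT 53 (53.5%) were higher and 4 (4.04%) lower, against 45.2% and 20.7%. No region of the wider list passed for the difference between populations.

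In the wider list the region with the lowest p between genotypes was at Cd3eap, which encodes another RNA polymerase I subunit (chr7:19359306-19359939, overlapping Ppp1r13l). It held 35.5, 34.1 and 34.1 CPM in KO LT-HSC, against 23.6, 24.3 and 20.3 CPM in WT LT-HSC (log2 fold change 0.60 ± 0.07, adjusted p = 1.76e-05), and 27.3, 28.9 and 27.9 CPM in KO MPP, against 18.7, 17.9 and 16.6 CPM in WT MPP (0.66 ± 0.07, adjusted p = 2.84e-06). Twistnb, another subunit gene, rose by 0.32 ± 0.08 and 0.38 ± 0.08 in LT-HSC and MPP (adjusted p = 0.0192 and 0.00228). Baz2a, whose protein is part of the complex that silences ribosomal DNA, rose at its end by 0.32 ± 0.08 (adjusted p = 0.0136) and 0.25 ± 0.07 (adjusted p = 0.0250), and at a body region of each population by 0.57 ± 0.13 (LT-HSC) and 0.35 ± 0.10 (MPP). KO libraries lay above WT libraries at each of the gene-end regions.

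Among small subunit genes of the wider list, Riok2 (0.49 ± 0.06), Wdr46 (0.48 ± 0.08, overlapping Pfdn6) and Dhx37 (0.63 ± 0.12) rose in KO LT-HSC on the log2 scale, and a Krr1 region fell (-0.68 ± 0.13). In KO MPP Wdr46 (0.59 ± 0.08), Dhx37 (0.69 ± 0.12), Rcl1 (1.05 ± 0.17) and Utp3 (0.70 ± 0.14) rose. The Dhx37, Krr1 and Rcl1 regions lay away from the ends of these genes. Those of Rcl1 and Utp3 were weak, with means of 3.24 and 4.85 CPM in KO MPP, against 1.6 and 2.95 CPM in WT MPP. Riok2 is a kinase of late small subunit maturation, and it held 49.8, 51.9 and 52.7 CPM in KO LT-HSC, against 37.6, 35.9 and 36.4 CPM in WT LT-HSC. Of the large subunit genes Lsg1 (0.49 ± 0.08) and Ftsj3 (0.43 ± 0.08, overlapping Psmc5) rose in KO LT-HSC, while regions of Noc2l (-0.78 ± 0.13) and Nmd3 (-0.97 ± 0.19) fell, and in KO MPP Rpf1 (0.41 ± 0.07), Rbm28 (0.48 ± 0.09) and Ftsj3 (0.44 ± 0.08) rose and an Efl1 body region fell (-0.76 ± 0.12). Lsg1 and Nmd3 act together in the last steps of large subunit maturation in yeast and human cells. The Nmd3 region lay away from the ends of the gene, with a mean of 1.58 CPM in KO LT-HSC, against 3.13 CPM in WT LT-HSC. All regions named in this paragraph had an adjusted p of at most 0.00295. For the regions of the wider list, the alternative settings and the left-out libraries were not read.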

How the data were processed

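ATAC-seq was deposited by the authors as raw read counts per open region, all in the same table, for 12 libraries, 3 in each of 4 groups. Per the submitters' processing notes, the tools were MACS2 2.1.1, Bowtie2, DESeq2 1.22.1, cutadapt and featureCounts and the build GRCm38, with order and settings not given in the sources used here. Regions were assigned to genes with the RefSeq annotation of the same build, by overlap with a protein-coding body or else the nearest body within 100 kb. Counts of all 12 libraries were fitted together with edgeR 4.0.16 (limma 3.58.1, R 4.3.3), with filterByExpr, which left out 1889 regions and kept 186373, TMM scaling and the quasi-likelihood test with Benjamini-Hochberg adjustment over all tested regions at 0.05. The biological coefficient of variation was 8.18%, and CPM used the TMM library sizes. The fit and the test of KO against WT in LT-HSC were also run on simulated counts with known changes. Region assignment, the other comparisons and the alternatives were not tested in this way. Tables and figures were made with Python 3.11.15, pandas 2.3.3, numpy 2.4.6 and matplotlib 3.10.9.

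Total counts of 22665988 to 48547234 per library limit the precision of weak regions. P-values measure the spread between these samples, which may be technical where separate animals are not stated, and 3 against 3 libraries cannot give an exact permutation p below 0.1, so single regions were judged by the fit over all regions. Alternatives were DESeq2 1.42.0, RLE and total-count scaling, a loess offset on mean abundance, no filter or at least 1 CPM in 3 libraries, the share of counts at gene ends as a covariate, only the groups compared, a replicate block, an adjusted p under 0.01, narrower assignments of regions and each library left out. Values in every library are given for member regions called between genotypes, for the 3 highest and 3 lowest lead regions between WT populations, and for the lead regions of Polr1a, Ubtf, Ncl, Npm1 and Fbl. For the wider list, up to 4 called regions of lowest p are named per group of genes and genotype comparison. The members and lists were chosen with earlier results of these data known. The class of gene-end regions of at least 10 CPM was added after seeing the data. No genome sequence was used, and the promoters come from the RefSeq windows of GRCm38.p6, with the shown ones picked as the genes of lowest p whose called region overlaps the window and, of several windows, the one sharing most bases with it, a choice made after seeing the data.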

Additional observations from a re-analysis of the deposited data

How the results depend on the processing

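Of the regions called between genotypes, 4 of 22 in LT-HSC and 8 of 27 in MPP were called without any 1 library. With gene-end share as covariate 2 and 9 were called. That share did not overlap between the groups compared, except that KO and WT MPP met at 41.0%. The covariate thus cannot be fully told apart from genotype or population. In LT-HSC the 22 calls became 14 with total-count scaling, 12 with the loess offset, 2 with the covariate, 9 at an adjusted p under 0.01 and 14 at gene ends only, and 10 to 19 without 1 library. In MPP the 27 became 9 with the covariate, 11 at an adjusted p under 0.01 and 15 at gene ends only, and 9 to 23 without 1 library. For MPP over LT-HSC the 104 calls in KO became 67 with the covariate, 69 in gene bodies only and 33 at gene ends only (91 to 102 without 1 library), and the 116 in WT became 72, 73 and 35 (110 to 115). The median log2 fold change of the gene-end regions was 0.16 for KO over WT in LT-HSC (0.08 with loess, 0.16 to 0.19 without 1 library) and 0.09 in MPP (0.03 with the covariate, 0.05 without WT MPP 3 to 0.14 without WT MPP 1). For MPP over LT-HSC it was 0.16 in KO (0.08 with loess, 0.02 with the covariate, 0.16 to 0.18 without 1 library) and 0.22 in WT (0.14, 0.07, and 0.17 to 0.28). The difference between populations gave 0 calls under each alternative, and only the groups compared gave no value for it, since it uses all 4 groups. With the replicate block the counts were 24, 30, 0, 108 and 120 for the genotypes in LT-HSC, in MPP, their difference, and the populations in KO and WT. It ended none of the calls between genotypes. Same-numbered libraries of KO and WT correlated, in their deviations from the group means, at -0.025 to 0.033 (LT-HSC) and -0.037 to 0.017 (MPP). Those of MPP and LT-HSC correlated at 0.054 to 0.064 (KO) and 0.073 to 0.114 (WT), where each matched its own number best, a hint from the data only, so the numbers were not taken as pairs. Directions that reversed were all at regions close to 0 or at covariate and loess settings. With loess the Ncl lead region was at -0.03 for KO over WT in LT-HSC and -0.02 in MPP, and at -0.07 and -0.08 for MPP over LT-HSC in KO and WT, and the Ubtf lead region was at -0.01 in LT-HSC. The Npm1 lead region, without 1 library, ranged between -0.04 and 0.03 in LT-HSC (0.02, 0.00 and 0.03 without WT LT-HSC 1, WT LT-HSC 2 and KO LT-HSC 2). In MPP it was at -0.02 with total-count scaling, -0.05 with loess, -0.01 with the 1 CPM filter and -0.09 with the covariate, and at -0.06 and -0.01 without WT MPP 3 and KO MPP 3, in a range of -0.06 to 0.06 without 1 library. For MPP over LT-HSC in KO, Imp4 was at 0.00 with that filter and Fbl at -0.04 with the covariate. In WT, Rrn3 was at 0.00 and Imp4 at 0.01 without WT MPP 3, Imp4 at 0.01 with the filter and Polr1a at -0.01 with the covariate. The cause of these shifts was not tested.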
